A study of Mus musculus with 2 samples.

Results

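Toll-like receptors, their co-receptors and the adaptors that sit directly beneath them were examined in bulk RNA-seq of granulocyte-monocyte progenitors (GMPs). The set held 10 genes of the 24421 gene symbols with deposited values and was taken by symbol: the surface receptors Tlr1, Tlr2, Tlr4 and Tlr6, the endosomal receptors Tlr7 and Tlr9, the co-receptors Cd14 and Ly96, and the adaptors Myd88 and Tirap. The GMPs were purified by flow cytometry from the BM of female mice on an F1 semi-syngeneic H-2b/d background. One group of mice bore no tumor (NTB-GMP), and the other carried mammary tumors grown from implanted 4T1 cells, a mouse mammary carcinoma line placed orthotopically (4T1-GMP). There was 1 library for each of the 2 groups, and the methods describe young adult females and name BALB/c mice for the 4T1 tumors, whereas the labels give the F1 background. The number of mice behind each library and the interval after implantation were not given in the sources used here. The design sets progenitors of mice with a tumor against those of mice without one.

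Toll-like receptors are membrane proteins that recognize conserved microbial molecules, and several also respond to products of damaged cells. TLR4 with its partner MD-2, encoded by Ly96, and with CD14 recognizes lipopolysaccharide, TLR2 pairs with TLR1 or TLR6 to recognize lipoproteins, and TLR7 and TLR9 recognize RNA and DNA in endosomes. Most of them signal through MyD88, with TIRAP as the bridge for TLR2 and TLR4, to IRAK kinases, TRAF6 and NF-kB. Hematopoietic progenitors are known to carry some of these receptors, and their ligation is known to favor myeloid output.

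Most of the set was higher in 4T1-GMP. Of the 10 genes, 9 had a higher RPKM, the reads per kilobase of gene, scaled to library size, in 4T1-GMP than in NTB-GMP, and Tlr9 had a lower one. Of all genes detected in either library 51.4% were higher, and of those that averaged 1 RPKM or more 54.7%, or 39.2% when Rn45s was kept out of the library sizes. Among the higher genes that averaged 1 RPKM or more, Tlr1 differed most (5.67-fold), followed by Myd88 (2.69-fold), Tlr4 (2.51-fold) and Cd14 (2.02-fold). Tlr7, Tlr9 and Ly96 had 2 to 8 reads in NTB-GMP and 8 to 38 in 4T1-GMP, and the direction of their difference was not resolved by these reads. With 1 library per group there is no replicate error and no test between the groups, so the intervals below cover the counting of reads only and compare these libraries, not the conditions. Reads were recovered from the RPKM, and every number of reads is a lower bound.

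The library sizes behind the RPKM were 10180365 for NTB-GMP and 30016263 for 4T1-GMP, a ratio of 2.95, and low genes were measured more precisely in 4T1-GMP. These sizes were not whole numbers and may include a scaling factor, so they need not be the depth, and the reads recovered over all genes came to at least 9486697 and 26353075. Reads of Rn45s, the ribosomal RNA precursor, came to 17.0% and 6.98% of the library sizes, respectively. The label was checked against 10 GMP markers, all of which were detected in both libraries, with Mpo, the peroxidase of primary granules, at 5162 and 5625 RPKM, Elane, neutrophil elastase, at 1853 and 2935 RPKM, and Prtn3, proteinase 3, at 1399 and 3311 RPKM. Of the 10, 6 were higher in 4T1-GMP, 3 of them 2-fold or more (3.25% of all genes averaging 1 RPKM or more). The 1 that was 2-fold or more lower (4.92% of those genes) was Cd34, a surface marker of early progenitors, with 154 and 59.4 RPKM. Kit (78.5 and 49.1 RPKM), Fcgr3 (53.1 and 28.6 RPKM) and Cebpa (45.6 and 35.5 RPKM) were lower too. Marker lists of other cells differed between the libraries. All 12 neutrophil genes were more than 2-fold higher in 4T1-GMP, with a summed level of 514 RPKM in NTB-GMP against 4072 in 4T1-GMP and none of them at 0. S100a9, S100a8 and Ngp led that list, at 189, 208 and 49.4 RPKM without a tumor and 1974, 1594 and 147 RPKM with one. Monocyte genes summed to 239 and 181 RPKM, with more than 2-fold lower values for 2 of the 7 that averaged 1 RPKM or more and none at 0. Dendritic cell genes summed to 166 and 41.2 RPKM, with 5 of 7 more than 2-fold lower and Cd209a at 0 in both. Neutrophils, monocytes and dendritic cells all carry Toll-like receptors, and the part of these cells in the levels below was not tested. Fewer cells of a type and less RNA per cell cannot be told apart in bulk RNA.

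**Figure D1:**
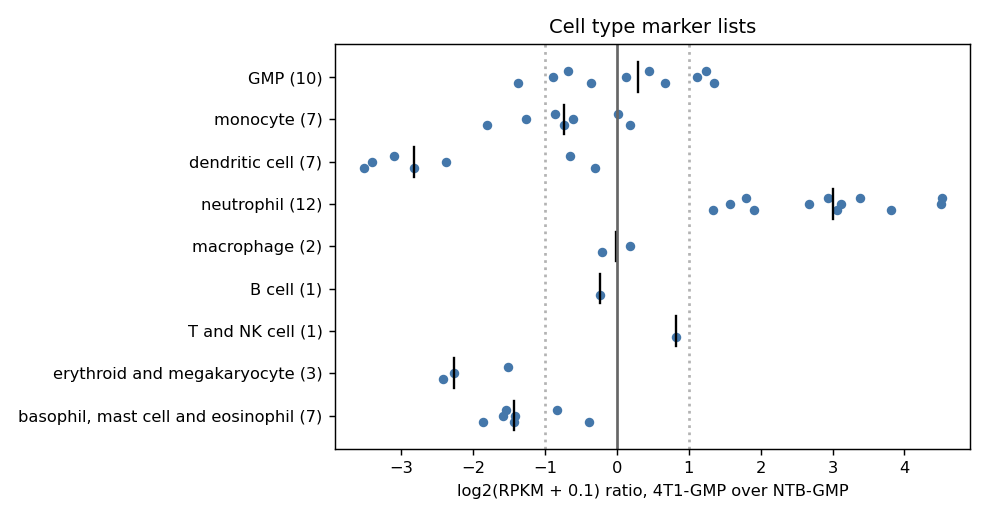
Log2(RPKM + 0.1) ratio of 4T1-GMP over NTB-GMP (x axis) for each gene averaging 1 RPKM or more in 9 marker lists (y axis, number of genes in parentheses). Points are genes, black bars are medians and dotted lines mark 2-fold. The 12 neutrophil genes all lie above 2-fold, with a median of 3.001, whereas the dendritic cell median is -2.82 and the monocyte median is -0.73.

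Among the surface receptors, Tlr4, the lipopolysaccharide receptor, was the most abundant in both libraries. It had 6.51 RPKM in NTB-GMP (95% Poisson interval 5.20 to 8.05, at least 85 reads) against 16.4 in 4T1-GMP (15.1 to 17.7, at least 630 reads). The RPKM ratio was 2.51 (95% Clopper-Pearson interval on the reads 2.00 to 3.19). The intervals of the libraries did not overlap, and 98.0% of the 10378 genes that averaged 1 RPKM or more had a lower log2 ratio. Tlr4 lies on chromosome 4 of mm10 (GRCm38), from 66827584 to 66930284 on the plus strand in the GENCODE M21 annotation.

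Tlr2, the common partner of the lipoprotein receptors, differed least of the surface receptors. It had 4.06 RPKM in NTB-GMP (interval 3.36 to 4.86, 118 reads) against 6.02 in 4T1-GMP (5.51 to 6.56, 516 reads), a ratio of 1.48 (1.21 to 1.83). The gene is on chromosome 3, from 83836272 to 83841767 on the minus strand. Tlr6, the partner of TLR2 for diacylated lipoproteins, had 2.91 RPKM (2.30 to 3.64, 77 reads) and 5.73 RPKM (5.21 to 6.28, 447 reads). Its ratio was 1.97 (1.54 to 2.54), so both libraries were again apart in the intervals of their levels, for Tlr6 as for Tlr2.

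Tlr1, the partner of TLR2 for triacylated lipoproteins, had the largest ratio of the set. It had 0.547 RPKM in NTB-GMP (interval 0.319 to 0.875, 17 reads) against 3.10 in 4T1-GMP (2.75 to 3.48, 284 reads). The ratio was 5.67 (3.48 to 9.86), higher on the log2 scale than in 99.2% of genes. Tlr1 was below 1 RPKM in NTB-GMP and reached a mean RPKM of 1 only through its level in 4T1-GMP. Relative to its partner, the level of Tlr1 was 0.135 times that of Tlr2 in NTB-GMP and 0.515 times in 4T1-GMP, while Tlr6 was at 0.717 and 0.951 times Tlr2.

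**Figure D2:**
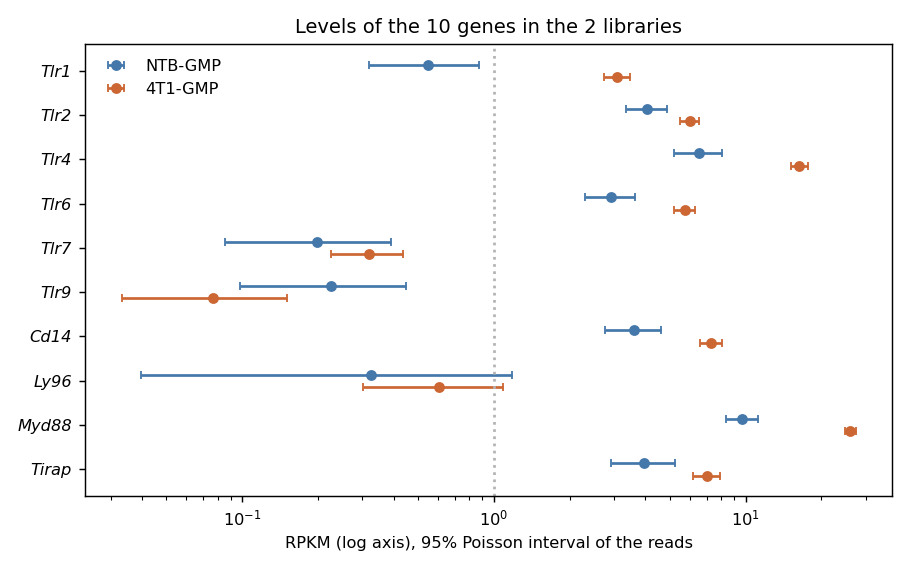
RPKM of each of the 10 genes (x axis, log scale) in NTB-GMP (blue) and 4T1-GMP (orange), with 1 library each. Bars are 95% Poisson intervals of the reads and the dotted line marks 1 RPKM. The intervals of the libraries are apart for the 7 genes averaging 1 RPKM or more, from Tlr1 (0.547 and 3.10 RPKM) to Myd88 (9.69 and 26.1 RPKM), and overlap for Tlr7, Tlr9 and Ly96. The interval of 4T1-GMP lay wholly above that of NTB-GMP in 30.7% of the 10378 genes at that level.

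Tlr1 and Tlr6 are neighbors on the minus strand of chromosome 5, Tlr1 from 64924679 to 64933563 and Tlr6 from 64952031 to 64960097, with 18467 bases between them, and part of their coding sequence is identical. Of the 50-base windows in annotated transcripts, 454 occur in both genes, which is 13.6% of the 3332 windows of Tlr1 and 12.3% of the 3702 windows of Tlr6. A read of that length from such a window could not be assigned to one gene, which leaves the values of Tlr1 and Tlr6 uncertain. The read length was not given in the sources used here, so the share of reads affected is not known. With every other gene counted, 15.4% of the windows of Tlr1 were shared. The longest identical stretch, of 229 bases, is shown because a read that falls inside it carries no base that separates the genes. It lies wholly in coding sequence, at chr5:64925537-64925765 in Tlr1 and chr5:64953828-64954056 in Tlr6 (mm10, minus strand), and reads 5′ to 3′ as follows.
Tlr1 and Tlr6: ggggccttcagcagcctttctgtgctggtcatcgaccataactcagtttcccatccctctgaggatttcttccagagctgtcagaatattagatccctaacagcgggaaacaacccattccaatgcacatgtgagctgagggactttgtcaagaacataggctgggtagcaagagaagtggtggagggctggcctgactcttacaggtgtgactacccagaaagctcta

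The endosomal receptors were scarce. Tlr7, a receptor for single-stranded RNA on chromosome X (167304929 to 167330558, minus strand), had 0.197 RPKM in NTB-GMP (interval 0.0853 to 0.389, 8 reads) against 0.318 in 4T1-GMP (0.225 to 0.437, 38 reads). Its ratio of 1.61 had an interval from 0.740 to 4.00, which includes 1. Tlr9, a receptor for unmethylated CpG DNA on chromosome 9 (106222598 to 106226883, plus strand), had 0.226 RPKM (0.0977 to 0.446) and 0.0768 RPKM (0.0332 to 0.151), from 8 reads in each library despite their unequal depth. It was the only one of the 10 genes with a lower value in 4T1-GMP, and its ratio of 0.339 had an interval from 0.111 to 1.04. Neither difference was resolved at this depth. Tlr7 and Tlr9 stood at similar levels in NTB-GMP, where their intervals overlapped, whereas in 4T1-GMP the interval of Tlr7 lay above that of Tlr9.

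The order of the 6 receptors by RPKM was Tlr4, Tlr2, Tlr6, Tlr1, Tlr9 and Tlr7 in NTB-GMP, and Tlr4, Tlr2, Tlr6, Tlr1, Tlr7 and Tlr9 in 4T1-GMP. The intervals of Tlr2 and Tlr6 overlapped in both libraries, so their order was not resolved, while Tlr4 was above Tlr2, and Tlr6 above Tlr1, beyond their intervals in both. Summed over the 12 receptors with deposited values, Toll-like receptor RPKM was 16.2 in NTB-GMP and 35.3 in 4T1-GMP. Tlr4 made up 40.2% and 46.4% of this sum, Tlr2 25.04% and 17.1%, Tlr6 17.9% and 16.2%, and Tlr1 3.37% and 8.79%.

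Both co-receptors take part in the recognition of lipopolysaccharide. Cd14, which hands lipopolysaccharide to the TLR4 complex, had 3.61 RPKM in NTB-GMP (interval 2.76 to 4.63, 61 reads) against 7.30 in 4T1-GMP (6.57 to 8.09, 364 reads). The ratio was 2.02 (1.54 to 2.70), with the libraries apart in their intervals, and the gene was at 0.554 and 0.446 times the level of Tlr4. Ly96, whose product MD-2 binds lipopolysaccharide on the outer part of TLR4, had 0.326 RPKM in NTB-GMP (0.0395 to 1.18) against 0.608 in 4T1-GMP (0.303 to 1.09). These values rest on 2 and 11 reads, and the ratio of 1.87 had an interval from 0.407 to 17.3. The level of Ly96 was 0.0500 times that of Tlr4 in NTB-GMP and 0.0371 times in 4T1-GMP. Cd14 is on chromosome 18 (36725067 to 36726798, minus strand) and Ly96 on chromosome 1 (16688051 to 16709611, plus strand).

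Myd88, the adaptor shared by most Toll-like receptors and by the IL-1 and IL-18 receptors, was the most abundant gene of the set. It had 9.69 RPKM in NTB-GMP (interval 8.36 to 11.2, 188 reads) against 26.1 in 4T1-GMP (24.8 to 27.4, 1490 reads). The ratio was 2.69 (2.31 to 3.15), the most precise of the 10, and 98.3% of genes had a lower log2 ratio. Tirap, the sorting adaptor that brings MyD88 to TLR2 and TLR4, had 3.95 RPKM (2.93 to 5.23, at least 49 reads) and 7.01 RPKM (6.18 to 7.92, at least 256 reads). Its ratio was 1.77 (1.301 to 2.46), and its level was 0.408 and 0.269 times that of Myd88. Both genes are on the minus strand of chromosome 9, Myd88 from 119335934 to 119341411 and Tirap from 35184551 to 35200291. Exons of Myd88 overlap those of Acaa1a on the other strand by 290 bases, and exons of Tirap overlap those of Gm39318 by 446 bases and Srpr by 39 bases. Whether counting used strand was not given in the sources used here, so reads from these stretches cannot be assigned with certainty. Of the 50-base windows in annotated transcripts, 7.42% of those of Myd88 and 9.7% of those of Tirap also occur in other genes, on either strand.

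**Figure D3:**
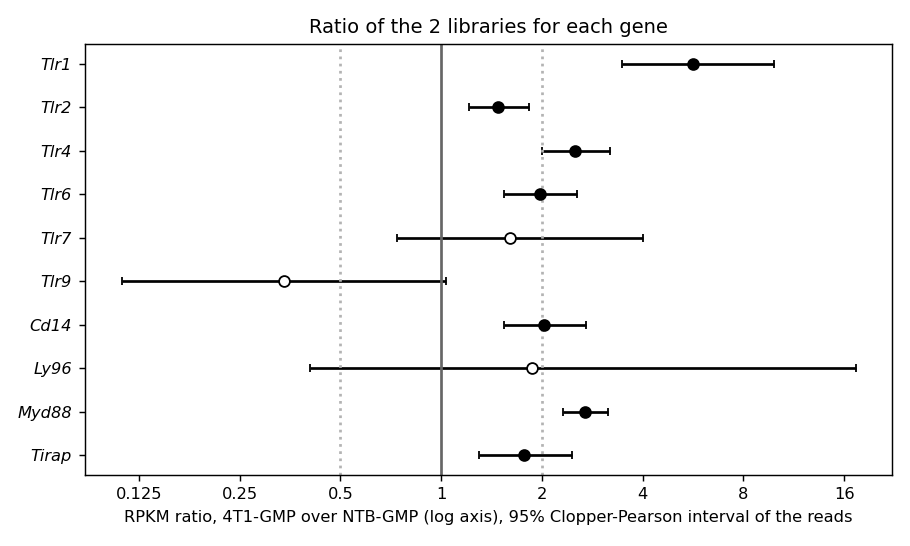
RPKM ratio of 4T1-GMP over NTB-GMP (x axis, log scale) for each of the 10 genes, with 95% Clopper-Pearson intervals on the reads. Filled points average 1 RPKM or more, open points do not, and lines mark equality and 2-fold. The intervals of 7 genes lie above 1, from Tlr2 at 1.48 to Tlr1 at 5.67, and those of Tlr7, Tlr9 and Ly96 include 1. The interval lay wholly above 1 in 36.3% of the 10378 genes at that level.

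Set against all genes, on the log2(RPKM + 0.1) scale, 7 of the 10 genes averaged 1 RPKM or more and all 7 were higher in 4T1-GMP. Of the 10378 genes at that level, 54.7% were higher, or 39.2% once the library sizes excluded Rn45s, a scaling that moved the median of all genes by -0.16 and changed the shares 2-fold or more higher and lower to 2.51% and 6.75%. Of the 7, 3 genes, Tlr1 (2.31), Myd88 (1.42) and Tlr4 (1.32), were 2-fold or more higher, against 3.25% of all genes. The number 2-fold or more lower was 0, against 4.92% of all genes. Cd14 rounded to 1.00 but lay just under the limit of 2-fold on this scale, although its RPKM ratio was 2.02, and it passed with a pseudocount of 0.01. Tlr6 lay under the limit at 0.95, and Tirap stood at 0.81 and Tlr2 at 0.56. The median of the 7 was 1.00 and that of all genes 0.05. These counts describe the genes that passed the level, since Tlr1 passed only through the library in which it was higher.

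**Figure D4:**
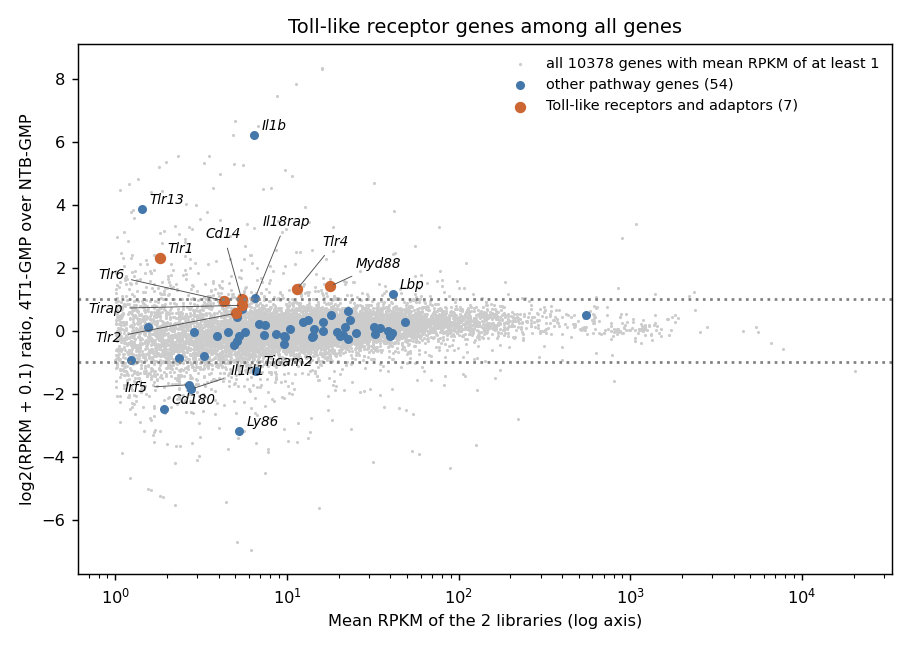
Log2(RPKM + 0.1) ratio of 4T1-GMP over NTB-GMP (y axis) against the mean RPKM of the libraries (x axis, log scale) for 10378 genes (gray), with 7 genes of the set in orange and 54 other pathway genes in blue. Dotted lines mark 2-fold. Tlr1, Myd88 and Tlr4 lie above 2-fold at 2.31, 1.42 and 1.32, and Ly86 and Cd180 lie far below it at -3.18 and -2.48.

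Promoters of the genes at the extremes are shown to give the sequence context of the start sites. RefSeq windows of 300 bases on GRCm38.p6 held 250 bases before and 50 bases from each annotated start site. Windows of 6 of the 10 genes were examined (Tlr1, Tlr2, Tlr6, Tlr9, Myd88 and Tirap). None was examined for Tlr4, Tlr7, Cd14 or Ly96. Short motifs were searched on both strands: GAGGAA, a core of sites for PU.1, a myeloid factor, which occurs in 28.3% of 32851 windows, TTGCNNAA, a C/EBP core (10.8%), GGGNNTTCC, an NF-kB core (5.82%), and GAAANNGAA, an IRF core (8.56%). A match is a description of letters and not a binding site. The windows below are the upstream one of Tlr1, the receptor with the largest ratio, that of Myd88, the adaptor with the largest ratio, that of Tlr2, the surface receptor with the smallest, and that of Tlr9, the one gene that was lower. Each is written 5′ to 3′ as the RefSeq table gives it, with motif matches in capitals. The Tlr2, Tlr9 and Myd88 windows were found on the strand of the gene in GENCODE transcripts, whereas the Tlr1 window was not found in one and its orientation rests on the table alone.
Tlr1, chr5:64933509-64933808, minus strand: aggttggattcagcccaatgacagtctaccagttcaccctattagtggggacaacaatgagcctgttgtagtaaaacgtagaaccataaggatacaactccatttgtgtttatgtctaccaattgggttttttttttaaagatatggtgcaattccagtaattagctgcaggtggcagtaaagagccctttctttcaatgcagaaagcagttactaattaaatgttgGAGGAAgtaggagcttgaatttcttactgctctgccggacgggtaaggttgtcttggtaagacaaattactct
Myd88, chr9:119339969-119340268, minus strand: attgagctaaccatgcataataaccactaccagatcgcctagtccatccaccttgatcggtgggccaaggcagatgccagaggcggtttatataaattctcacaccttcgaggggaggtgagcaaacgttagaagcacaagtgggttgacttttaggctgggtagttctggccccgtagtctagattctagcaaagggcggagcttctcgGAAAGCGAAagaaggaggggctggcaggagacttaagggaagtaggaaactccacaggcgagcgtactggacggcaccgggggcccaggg
Tlr2, chr3:83841559-83841858, minus strand: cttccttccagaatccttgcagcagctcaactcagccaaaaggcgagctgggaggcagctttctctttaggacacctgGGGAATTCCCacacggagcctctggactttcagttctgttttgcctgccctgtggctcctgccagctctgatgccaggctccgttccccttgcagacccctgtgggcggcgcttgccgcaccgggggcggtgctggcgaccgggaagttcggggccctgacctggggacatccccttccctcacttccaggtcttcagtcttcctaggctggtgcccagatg
Tlr9, chr9:106222348-106222647, plus strand: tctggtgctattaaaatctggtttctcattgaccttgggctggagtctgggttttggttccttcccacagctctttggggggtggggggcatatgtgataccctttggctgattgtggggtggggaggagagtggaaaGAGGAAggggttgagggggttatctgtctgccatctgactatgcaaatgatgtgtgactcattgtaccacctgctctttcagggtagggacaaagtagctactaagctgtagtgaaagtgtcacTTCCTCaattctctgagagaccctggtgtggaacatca

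The Tlr1 window held 1 PU.1 match, 23 bases before the start site, and that of Myd88 1 IRF match, 40 bases before it. The Tlr2 window held an NF-kB match read on both strands over the same 10 bases, and that of Tlr9 held 2 PU.1 matches. A further window of Tlr6 held 2 IRF matches and 1 C/EBP match, and both windows of Tirap, the second window of Tlr1 and the second of Tlr6 held none. The Tlr6 window with matches and the second window of Tlr1 were not found in GENCODE transcripts either. Their orientation rests on RefSeq alone. No motif was shared by the windows of Tlr1 and Myd88.

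The other genes of the pathway went both ways. A list of 75 further genes, by role, had 54 averaging 1 RPKM or more, of which 22 were higher in 4T1-GMP (54.7% of all genes), 4 were 2-fold or more higher (3.25% of all genes) and 5 were 2-fold or more lower (4.92% of all genes). Their median log2 ratio was -0.04, near that of all genes. Tlr13 and Il1b reached the level only through 4T1-GMP, and Ly86 and Cd180 only through NTB-GMP. The counts past 2-fold therefore describe the genes that passed the level.

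Of the 6 remaining Toll-like receptors, Tlr13 reached the level, through 4T1-GMP alone. Tlr13, an endosomal receptor for bacterial ribosomal RNA, had 0.0979 RPKM in NTB-GMP (2 reads) against 2.76 in 4T1-GMP (166 reads), a ratio of 28.2 (interval 7.67 to 234). By RPKM it was the tenth of the 12 receptors in NTB-GMP and the fifth in 4T1-GMP. Tlr8 had 0.0933 RPKM (3 reads) and 0.591 RPKM (56 reads). Tlr3, a receptor for double-stranded RNA, went from 0.863 RPKM (38 reads) to 0.146 RPKM (19 reads), a ratio of 0.170 (0.0923 to 0.302). Tlr11 went from 0.490 RPKM (16 reads) to 0.0208 RPKM (2 reads), Tlr12 was at 0.217 and 0.105 RPKM, and Tlr5, the flagellin receptor, was listed at 0 in NTB-GMP and had 3 reads in 4T1-GMP.

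Among the other adaptors, Ticam2, which links TLR4 to the TRIF branch, was lower, with 9.42 RPKM in NTB-GMP against 3.84 in 4T1-GMP, 2.45-fold lower (interval 2.11 to 2.86). Ticam1, which encodes TRIF itself, had 4.30 and 5.87 RPKM, a ratio of 1.36 (1.12 to 1.68). Pik3ap1, the adaptor BCAP, was the most abundant of this group at 17.8 and 27.4 RPKM (ratio 1.54, interval 1.40 to 1.71), and Sarm1 had 1 read in all.

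Among the pathway genes that averaged 1 RPKM or more, the lowest ratios were in a receptor pair related to TLR4 and MD-2. Ly86, which encodes MD-1, had 9.56 RPKM in NTB-GMP against 0.969 in 4T1-GMP, 9.86-fold lower (interval 6.46 to 15.5). Cd180, its partner RP105, had 3.34 and 0.516 RPKM, 6.47-fold lower (4.31 to 9.88). Both genes reached the level through NTB-GMP alone. Tlr4 and Cd14 were thus higher in the library in which this homologous pair was lower, as was the dendritic cell list (166 and 41.2 RPKM), whose part in these values was not tested. Lbp, the lipopolysaccharide-binding protein, had 25.4 and 57.0 RPKM, a ratio of 2.24 (2.06 to 2.43). Proteins that fold or move Toll-like receptors stayed within 2-fold: Hsp90b1, the chaperone gp96, had 457 and 652 RPKM, Unc93b1, which carries the endosomal receptors, 30.8 and 33.8 RPKM, and Cnpy3, a co-chaperone of gp96, 41.8 and 39.6 RPKM.

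Most genes downstream of the adaptors were within 2-fold, as were most of all genes averaging 1 RPKM or more. Of all such genes, 3.25% were 2-fold or more higher in 4T1-GMP and 4.92% were 2-fold or more lower. All 14 proximal kinases and ubiquitin ligases, and the 10 of 12 IKK and NF-kB genes that reached the level, were within 2-fold, with medians of -0.02 and -0.15 on the log2 scale and ranges of -0.46 to 0.34 and -0.32 to 0.49. Ube2v1, a ubiquitin-conjugating cofactor of TRAF6, was the most abundant of the first group at 44.3 and 53.6 RPKM, Irak4, the kinase that MyD88 recruits first, had 11.1 and 13.6 RPKM, Irak1, which joins after it, had 41.8 and 37.4 RPKM, and Traf6 had 10.2 and 10.5 RPKM. Nfkb1, an NF-kB subunit, led the second group at 34.04 and 36.0 RPKM (ratio 1.06, interval 0.996 to 1.12). Of the 2 below the level, Map3k8, a kinase of the NF-kB and MAPK branches, was higher, with 0.353 RPKM (9 reads) and 1.08 RPKM (81 reads), a ratio of 3.05 (1.53 to 6.91), and Relb, another NF-kB subunit, had 0.357 and 0.591 RPKM (ratio 1.65, interval 0.762 to 4.10). In the TRIF and IRF arm, Irf5, a transcription factor activated downstream of MyD88, went from 4.19 to 1.21 RPKM, 3.46-fold lower (2.57 to 4.66), and the 4 others were within 2-fold, with Tbk1 at 20.8 and 22.8 RPKM. None of the 7 negative regulators at the level passed 2-fold. Irak3, a kinase-like brake on the pathway, was the most abundant at 24.9 and 20.7 RPKM, and Tnfaip3, the deubiquitinase A20, had 3.06 and 1.65 RPKM.

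**Figure D5:**
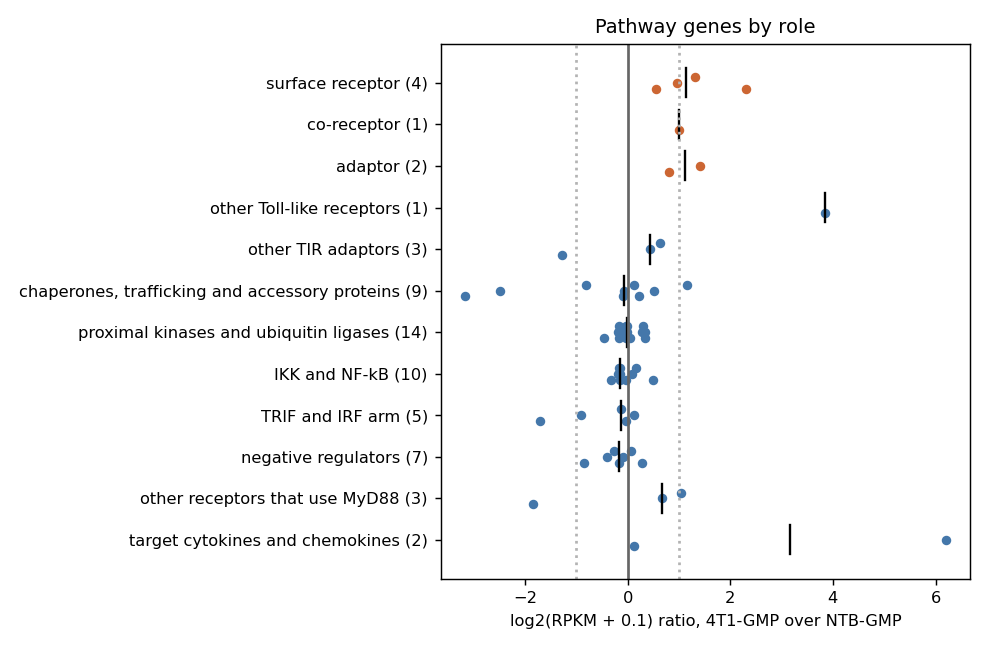
Log2(RPKM + 0.1) ratio of 4T1-GMP over NTB-GMP (x axis) for genes averaging 1 RPKM or more, by role (y axis, number of genes in parentheses), with the set itself in orange and other pathway genes in blue. Black bars are medians and dotted lines mark 2-fold. Medians are 1.14 for the surface receptors and 1.11 for the adaptors of the set, -0.02 for the proximal kinases and ligases and -0.15 for the IKK and NF-kB genes.

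Other receptors that signal through MyD88 went both ways. Il18rap, a chain of the IL-18 receptor, had the highest mean of the libraries, with 4.24 and 8.78 RPKM, a ratio of 2.07 (interval 1.79 to 2.41). Il1rl1, the IL-33 receptor, had 4.36 and 1.14 RPKM, 3.84-fold lower (3.24 to 4.56), in a library in which all 7 basophil, mast cell and eosinophil markers were lower as well (summed 1794 and 645 RPKM, 5 of 7 more than 2-fold lower), whose part in this value was not tested. Il1rap had 4.18 and 6.74 RPKM. The 2 other receptor genes of this list, Il1r1 and Il18r1, averaged under 1 RPKM and were not higher. Il1r1 had 1.25 and 0.682 RPKM, a ratio of 0.546 (0.396 to 0.758). Il18r1 had 0.185 RPKM (9 reads) and 0.160 RPKM (23 reads), a ratio of 0.867 with an interval from 0.386 to 2.13. Of 10 cytokine and chemokine targets of NF-kB, Tnf and Il1b reached the level, Il1b through 4T1-GMP alone. Il1b had 0.0740 RPKM from 1 read in NTB-GMP and 12.8 RPKM from 509 reads in 4T1-GMP, a ratio of 173 with an interval from 30.8 to 6832. Tnf was at 1.49 and 1.63 RPKM. Il6, just under the level at a mean of 0.996 RPKM, went the other way. It had 20 reads in NTB-GMP and 6 in 4T1-GMP (1.81 and 0.184 RPKM), 9.83-fold lower (3.81 to 29.9). Il1a and Il10 were listed at 0 in both libraries.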

How the data were processed

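RNA of GMPs from NTB and 4T1-bearing mice was measured by bulk RNA-seq, with 1 library per group. The authors deposited RPKM for each gene symbol and library. The submitters' processing notes name CASAVA 1.8.2, cutadapt 1.2.1, TopHat2 2.0.13, Picard 1.97, HTSeq 0.6.1, edgeR 3.12.1 and the mm10 build. The annotation, gene lengths, read length and use of strand were not given in the sources used here. Library sizes and whole reads were recovered from the full-precision RPKM, for 14833 of 14833 genes above 0. Recovered counts can be too low by a common factor, so every count is a lower bound. For counting error alone, the intervals are at least as wide as the full reads would give. Tested on simulated data for this comparison with 12860 genes, the recovery returned the right read ratio in 100% of them and the right reads of both libraries in 83.5%.

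Levels carry exact 95% Poisson intervals and ratios 95% Clopper-Pearson intervals. Both cover counting error only, because neither group had a second library. Reads are PCR products without molecular identifiers, so copies of the same molecule can count more than once, which these intervals leave out. Genes were compared with all others on the log2(RPKM + 0.1) scale, on which low genes appear to change less than they do, among genes averaging 1 RPKM or more, and 2-fold stood in for a call since no test was possible. The genes of the set and the lists of pathway and marker genes were chosen with earlier results of these data known. Named were the 10 genes of the set and, in each role of the pathway, the genes past 2-fold and the most abundant one. The rule also took the 3 most abundant markers of each list, of which those of the GMP and neutrophil lists are given. Other genes were named after their values were seen. Macrophage, B cell, T and NK cell, and erythroid and megakaryocyte lists were also measured: 0 of 2, 0 of 1, 0 of 1 and 0 of 3 genes at that level were 2-fold higher in 4T1-GMP, and 0, 0, 0 and 3 were 2-fold lower. Positions came from GENCODE M21 (GRCm38) and promoters from RefSeq (GRCm38.p6). Alternatives were pseudocounts of 1 and 0.01, library sizes without Rn45s, centering on the median, quantile normalization, no minimum level, a minimum mean RPKM of 5 and 1.5-fold in place of 2-fold. Computations used Python 3.11.15, numpy 2.4.6, pandas 2.3.3 and scipy 1.17.1.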

Additional observations from a re-analysis of the deposited data

How the results depend on the processing

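Under the pseudocounts, library sizes and normalizations tried, 9 of the 10 genes stayed higher in 4T1-GMP and Tlr9 lower. The count of 3 genes of the set 2-fold or more higher became 2 of 5 with a minimum mean RPKM of 5, where Tlr1 was not included (2.13% of all genes passed), 4 with a pseudocount of 0.01 (3.40%), 5 after quantile normalization, with Cd14 and Tlr6 added (3.65%), and 6 of 7 with 1.5-fold in place of 2-fold, where 9.80% of all genes passed. Their median log2 ratio of 1.00 became 0.85 with a pseudocount of 1, 0.84 without Rn45s in the library sizes, 1.11 after quantile normalization and 0.88 with no minimum level. Of the 54 other pathway genes at the level, the 4 that were 2-fold or more higher became 2 without Rn45s (2.51% of all genes passed). With no minimum level, 7 of 73 were higher by that much (4.95%). The 5 that were 2-fold or more lower became 7 without Rn45s (6.75%) and 8 with 1.5-fold in place of 2-fold (11.65%). They became 10 of 73 with no minimum level (8.4%) and 2 of 42 with a minimum mean RPKM of 5 (2.27%). The changes without Rn45s follow from its common shift and those with other levels or folds from the number of genes passing. The cause of the quantile result was not tested. For single genes, 85 of 95 log2 ratios under alternatives lay inside the interval of the reads, 10 moved outside it and 0 reversed. Of the set, only Tlr1 moved, from 2.31 to 1.41 with a pseudocount of 1, where it stayed the largest, with Myd88 at 1.34. Depth limits Tlr7, Tlr9 and Ly96, which had 8, 8 and 2 reads in NTB-GMP. No paired analysis was possible because neither group had a second library, which also left no replicate to omit.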
